A study of Mus musculus with 2 samples.

Results

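The enzymes that build cholesterol and fatty acids were followed through 29 listed genes, all of which were found by symbol among the 53715 genes of both libraries. They comprise 17 enzymes of the sterol branch, 4 genes of its regulation and of sterol transport, and 8 enzymes of fatty acid synthesis. By the labels, CD45.2-positive, CD3-negative and NKp46-positive cells were sorted from mouse CT26 colon carcinomas whose tumour cells have no B2m, a chain that MHC class I needs at the surface. The tumours of both groups carry this deletion. One treatment was IL-15SA together with IL-21Fc and the other was IL-15SA alone, and each group is a single library, loaded from a pool of its sorted cells. The series title words the treatments differently from the sample titles, which were followed. No dose, schedule, strain, age or number of pooled animals is given in the sources used here. Without replicate libraries no test was made, and every interval below is a 95% interval for counting error only.

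Cholesterol is made from acetyl-CoA through mevalonate, squalene and lanosterol, and fatty acids are made from the same acetyl-CoA through malonyl-CoA and palmitate. Both branches are driven by the SREBP transcription factors, which INSIG proteins hold in the endoplasmic reticulum while sterol is abundant. Dividing cells use both products for new membranes, and in mouse NK cells SREBP activity is known to serve the metabolism of cytokine-stimulated cells.

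The IL-15SA+IL-21Fc library held 12435 barcodes and 35336180 UMIs (unique molecular identifiers, each a counted transcript molecule), and the IL-15SA library held 8386 barcodes and 30893388 UMIs. Levels are given as CPM, UMIs per 1000000 of a population's UMIs, not divided by transcript length. Most barcodes fell into clusters with NK cell markers. Within these, barcodes with at least 1 UMI of Ncr1, the gene of NKp46, are called Ncr1-positive, and there were 9794 in the IL-15SA+IL-21Fc library and 7075 in the IL-15SA library. All 11 NK cell markers found in the files had UMIs in them. The T cell list summed to 181 and 160 CPM there. Cluster 5 instead carried tumour and stroma markers, and its sub-clusters with Ncr1 under 0.2 times the level of the NK compartment are called tumour-like, with 552 and 177 barcodes. Tumour-like barcodes held both the CT26 marker list (summed 4132 and 4265 CPM, with Krt8 at 0 in both libraries and Mmp3 in the IL-15SA library) and the stroma list (1242 and 1287 CPM), and tumour and stroma cells were not told apart. In Ncr1-positive barcodes the CT26 list summed to 1672 and 2506 CPM and the stroma list to 38.4 and 20.3 CPM. The CT26 list as a sum is thus less specific to tumour-like barcodes than the stroma list. This does not hold for each of its genes. Rhox5, Timp1 and Sparc were at 28.3, 16.4 and 13.1 CPM in Ncr1-positive barcodes of the IL-15SA+IL-21Fc library. In those of the IL-15SA library they were at 14.0, 8.33 and 6.65 CPM, so most of the CT26 sum there came from other genes of the list. The NK list summed to 3168 and 4794 CPM in tumour-like barcodes, against 32368 and 36154 CPM in Ncr1-positive barcodes. A total of 60 barcode sequences occurred in both libraries, 0.483% of the IL-15SA+IL-21Fc library and 0.715% of the IL-15SA library.

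Sterol and fatty acid enzymes were both higher in tumour-like than in Ncr1-positive barcodes. The 17 sterol enzymes together were at 1116 CPM in tumour-like barcodes and 359 CPM in Ncr1-positive barcodes of the IL-15SA+IL-21Fc library, with a ratio of 3.11 (2.99 to 3.24). The IL-15SA library had 1247 CPM in tumour-like and 373 CPM in Ncr1-positive barcodes, with a ratio of 3.34 (3.15 to 3.55). For the 8 fatty acid enzymes the ratio was 2.80 (2.66 to 2.95) in the IL-15SA+IL-21Fc library and 2.79 (2.57 to 3.04) in the IL-15SA library. The 4 regulators and transport genes differed less, with ratios of 1.63 (1.499 to 1.78) and 1.97 (1.72 to 2.24).

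Single members were counted when the ratio, with 1 CPM added to both levels, was at least 2-fold in the same direction in both libraries. Of the 24 members at 5 CPM or more in the Ncr1-positive barcodes of both libraries, 15 were at least 2-fold higher in tumour-like barcodes, against 10% of the 8779 genes that pass the same filter. They were 9 of 13 sterol enzymes, 2 of 4 regulators and 4 of 7 fatty acid enzymes. At least 2-fold lower were 0 of the 24, against 14.9% of these genes. A further 4 members, Idi1, Tm7sf2, Hsd17b7 and Scd1, passed the filter through their level in tumour-like barcodes alone. With the filter met in either population, 2-fold higher levels in tumour-like barcodes were found for 20.1% of 10259 genes and 2-fold lower ones for 12.7%, beside 18 and 0 of 28 members.

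**Figure D1:**
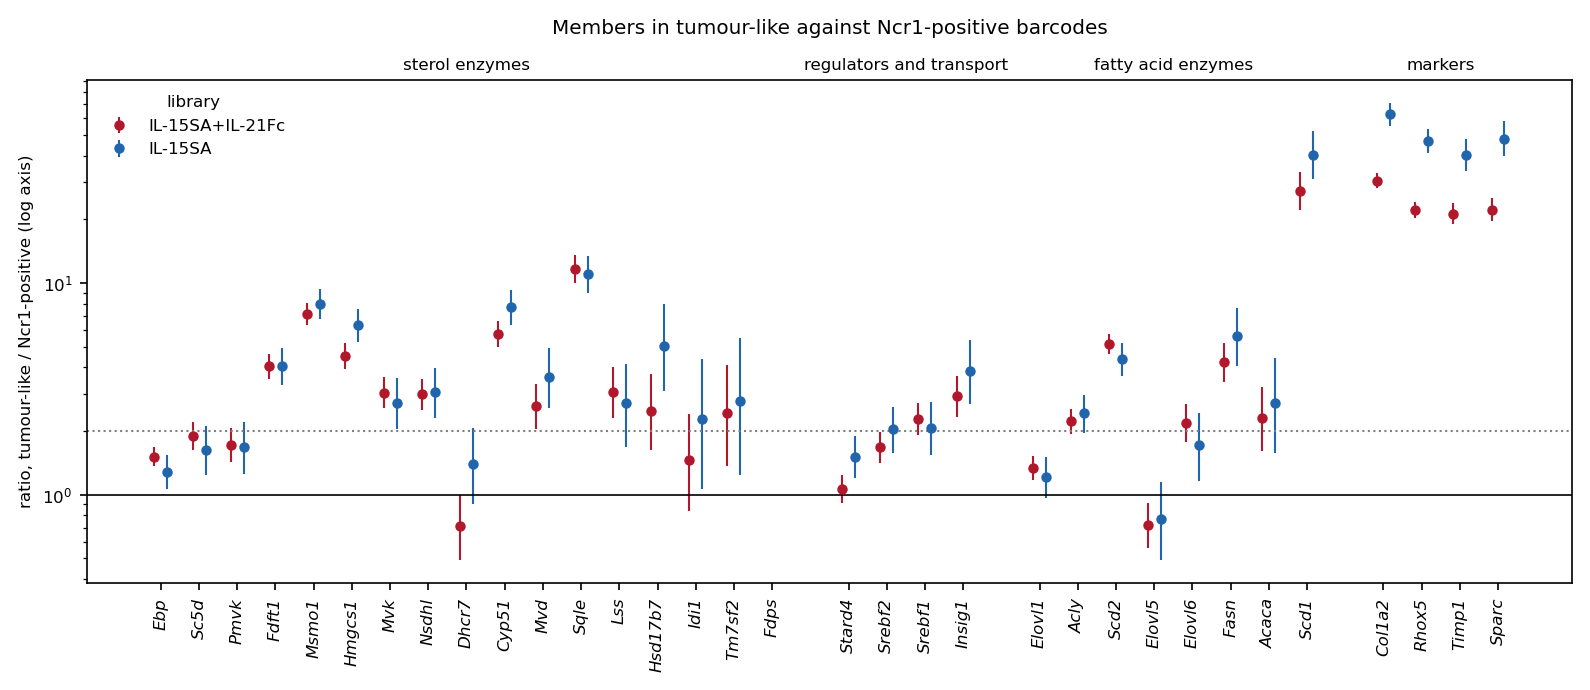
Ratio of the level in tumour-like over that in Ncr1-positive barcodes for each member (log axis), with the 95% counting interval, in the IL-15SA+IL-21Fc library (red) and the IL-15SA library (blue). The last 4 genes are tumour and stroma markers, the dotted line marks 2-fold, and Fdps is left out for too few UMIs. Scd1 lies beside the markers, and Sqle is the highest sterol enzyme in both libraries.

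The first enzymes of the sterol branch build and activate mevalonate. Hmgcs1, which makes HMG-CoA, was at 96.7 CPM in tumour-like and 21.3 CPM in Ncr1-positive barcodes of the IL-15SA+IL-21Fc library, and at 151 and 23.8 CPM in those of the IL-15SA library. Its ratios were 4.54 (3.92 to 5.24) and 6.32 (5.25 to 7.57). Mevalonate kinase, Mvk, was 3.04-fold and 2.72-fold higher in tumour-like barcodes, and the decarboxylase Mvd 2.62-fold and 3.59-fold. Phosphomevalonate kinase, Pmvk, which acts between them, stayed under 2-fold with ratios of 1.73 and 1.67. Idi1, which isomerises the isoprene unit, rested on 18 and 10 UMIs in tumour-like barcodes, with intervals of 0.839 to 2.41 and 1.07 to 4.36 for its ratios of 1.46 and 2.29.

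Fdps, which joins isoprene units into farnesyl diphosphate, had 0 and 1 UMIs in tumour-like barcodes and 2 and 3 in Ncr1-positive barcodes. In the annotation 26.7% of its exon bases are shared on the same strand with the gene Gm43738, which had 2 and 2 UMIs in Ncr1-positive barcodes. How reads at shared bases were assigned is not stated, so the values of Fdps were not read as its level.

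Farnesyl units are then joined to squalene and closed into lanosterol. Sqle, squalene epoxidase, a rate-limiting step after mevalonate, was at 134 CPM in tumour-like and 11.4 CPM in Ncr1-positive barcodes of the IL-15SA+IL-21Fc library, and at 137 and 12.5 CPM in those of the IL-15SA library. Its ratios of 11.7 (10.1 to 13.6) and 11.01 (8.95 to 13.5) were the highest of the sterol enzymes in both libraries. Squalene synthase, Fdft1, was 4.04-fold and 4.06-fold higher in tumour-like barcodes, and lanosterol synthase, Lss, 3.05-fold and 2.70-fold.

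Lanosterol is then demethylated. Msmo1, which oxidises methyl groups of the sterol ring, was at 176 CPM in tumour-like and 24.6 CPM in Ncr1-positive barcodes of the IL-15SA+IL-21Fc library, and at 199 and 25.0 CPM in those of the IL-15SA library, with ratios of 7.15 (6.36 to 8.04) and 7.98 (6.77 to 9.37). Cyp51, the lanosterol demethylase, was at 117 CPM in tumour-like and 20.4 CPM in Ncr1-positive barcodes of the IL-15SA+IL-21Fc library, and at 140 and 18.2 CPM in those of the IL-15SA library, with ratios of 5.75 (5.005 to 6.59) and 7.71 (6.33 to 9.33). The intervals of both genes lie far above 2-fold. Nsdhl, a sterol dehydrogenase that acts with Msmo1, was 2.99-fold and 3.06-fold higher. Hsd17b7, a ketosterol reductase of the same step, had ratios of 2.50 and 5.05 on 31 and 23 UMIs in tumour-like barcodes, and the sterol reductase Tm7sf2 had ratios of 2.42 and 2.79 on 18 and 9 UMIs.

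The genes of the late steps stayed under 2-fold. Ebp, the sterol isomerase, was 1.52-fold and 1.29-fold higher in tumour-like barcodes, and the desaturase Sc5d 1.89-fold and 1.63-fold. Dhcr7, a reductase at the end of the pathway, was at 12.7 CPM in tumour-like and 17.9 CPM in Ncr1-positive barcodes of the IL-15SA+IL-21Fc library, with a ratio of 0.709 (0.491 to 0.996). The IL-15SA library had 26.5 CPM in tumour-like and 18.9 CPM in Ncr1-positive barcodes, with a ratio of 1.40 (0.906 to 2.08), so Dhcr7 lay on opposite sides of 1 in the libraries.

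Among the regulators, Insig1, whose protein retains the SREBPs in the endoplasmic reticulum and whose gene they activate, had ratios of 2.93 (2.33 to 3.66) and 3.85 (2.69 to 5.38). Srebf1, which encodes SREBP1, had ratios of 2.28 (1.91 to 2.70) and 2.08 (1.54 to 2.74). Srebf2, which encodes SREBP2, the main driver of the sterol branch, had ratios of 1.68 (1.42 to 1.99) and 2.04 (1.58 to 2.60) and reached 2-fold in the IL-15SA library only. Stard4, a carrier of cholesterol between membranes, was at 65.3 CPM in tumour-like and 61.1 CPM in Ncr1-positive barcodes of the IL-15SA+IL-21Fc library, with ratios of 1.07 (0.913 to 1.24) there and 1.51 (1.199 to 1.89) in the IL-15SA library.

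Among the fatty acid enzymes, Scd1, which puts a double bond into stearoyl-CoA, differed most. It was at 131 CPM in tumour-like and 4.81 CPM in Ncr1-positive barcodes of the IL-15SA+IL-21Fc library, and at 149 and 3.70 CPM in those of the IL-15SA library, with ratios of 27.2 (22.2 to 33.3) and 40.2 (30.9 to 52.4). Its level in Ncr1-positive barcodes was thus 3.68% and 2.49% of that in tumour-like barcodes. The markers Col1a2, Rhox5, Timp1 and Sparc were at 3.28% to 4.69% in the IL-15SA+IL-21Fc library and at 1.595% to 2.47% in the IL-15SA library. Scd1 lay within the first range and just above the second. The part of RNA from tumour and stroma cells in its level in Ncr1-positive barcodes was not tested.

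The related desaturase Scd2 was at 179 CPM in tumour-like and 34.8 CPM in Ncr1-positive barcodes of the IL-15SA+IL-21Fc library, and at 149 and 33.9 CPM in those of the IL-15SA library, with ratios of 5.14 (4.61 to 5.73) and 4.38 (3.65 to 5.22). Its level in Ncr1-positive barcodes was 19.4% and 22.8% of that in tumour-like barcodes, above the range of the 4 markers in both libraries. Scd1 and Scd2 have similar copies, and of these Scd3 had 9 and 8 UMIs and Scd4 8 and 1 UMIs in the Ncr1-positive barcodes of the IL-15SA+IL-21Fc and IL-15SA libraries.

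Fasn, which assembles palmitate, was at 47.6 CPM in tumour-like and 11.3 CPM in Ncr1-positive barcodes of the IL-15SA+IL-21Fc library, and at 51.9 and 9.22 CPM in those of the IL-15SA library, with ratios of 4.23 (3.43 to 5.19) and 5.63 (4.08 to 7.63). Acly, which makes acetyl-CoA from citrate, was 2.23-fold and 2.43-fold higher, and Acaca, which makes malonyl-CoA, 2.30-fold and 2.72-fold. The elongases differed less. Elovl6, which extends palmitate, had ratios of 2.19 and 1.71, and Elovl1, which builds very long saturated chains, ratios of 1.34 and 1.21. Elovl5, which extends polyunsaturated chains, was at 26.1 CPM in tumour-like and 36.2 CPM in Ncr1-positive barcodes of the IL-15SA+IL-21Fc library, and at 24.4 and 31.7 CPM in those of the IL-15SA library. Its ratios were 0.720 (0.561 to 0.913) and 0.769 (0.490 to 1.15), below 1 in both libraries, with an interval that includes 1 in the IL-15SA library.

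UMIs of tumour and stroma markers were also counted in Ncr1-positive barcodes. The 4 markers summed to 2133 and 2214 CPM in tumour-like barcodes, against 86.1 and 43.3 CPM in Ncr1-positive barcodes of the IL-15SA+IL-21Fc and IL-15SA libraries. Sqle was at 15.4 CPM (12.4 to 19.0) in Ncr1-positive barcodes with a UMI of these markers and 10.4 CPM (9.09 to 11.8) in those without one in the IL-15SA+IL-21Fc library, and the intervals do not overlap. They overlap in the IL-15SA library, at 15.5 CPM (11.9 to 19.7) with a marker UMI and 11.9 CPM (10.5 to 13.4) without. Scd1 was at 7.20 CPM (5.19 to 9.73) with a marker UMI and 4.18 CPM (3.37 to 5.12) without in the IL-15SA+IL-21Fc library, and on the other side in the IL-15SA library, at 3.38 CPM (1.85 to 5.67) with and 3.75 CPM (2.999 to 4.64) without, where the intervals overlap. Scd2, the other desaturase, was at 33.9 and 35.3 CPM with a marker UMI and 35.1 and 33.7 CPM without. Barcodes with a marker UMI were also deeper, so this split does not hold depth equal. Their median was 2719 UMIs against 2384 without one in the IL-15SA+IL-21Fc library, and 3743 against 3151 in the IL-15SA library. The part of RNA from tumour and stroma cells in the members' levels was not tested.

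Promoters are shown for genes at both ends of this contrast: Hmgcs1, Msmo1, Cyp51 and Fasn, higher in tumour-like barcodes, and Elovl5, which was not. Each line gives the 200 bases before the RefSeq start (GRCm38.p6), 5' to 3' on the gene's strand. Capitals mark a CCAAT box on either strand, read as CCAAT or ATTGG, and in Hmgcs1 also the classic sterol regulatory element TCACNCCAC. The stretches are chr13:119690151-119690350 (plus strand) for Hmgcs1, chr8:64733579-64733778 (minus strand) for Msmo1, chr5:4104698-4104897 (minus strand) for Cyp51, chr11:120824548-120824747 (minus strand) for Fasn and chr9:77917165-77917364 (plus strand) for Elovl5.
Hmgcs1: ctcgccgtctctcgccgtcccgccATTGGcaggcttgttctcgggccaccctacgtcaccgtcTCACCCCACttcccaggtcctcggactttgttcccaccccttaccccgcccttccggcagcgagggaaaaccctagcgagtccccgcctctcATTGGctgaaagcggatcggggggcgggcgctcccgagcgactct
Msmo1: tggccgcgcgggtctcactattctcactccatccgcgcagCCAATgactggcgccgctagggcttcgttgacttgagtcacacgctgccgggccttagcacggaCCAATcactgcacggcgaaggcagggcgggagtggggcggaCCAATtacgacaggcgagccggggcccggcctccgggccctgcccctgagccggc
Cyp51: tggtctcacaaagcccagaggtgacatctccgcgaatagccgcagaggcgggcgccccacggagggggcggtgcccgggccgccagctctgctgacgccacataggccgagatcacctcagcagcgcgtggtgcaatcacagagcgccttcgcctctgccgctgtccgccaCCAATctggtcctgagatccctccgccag
Fasn: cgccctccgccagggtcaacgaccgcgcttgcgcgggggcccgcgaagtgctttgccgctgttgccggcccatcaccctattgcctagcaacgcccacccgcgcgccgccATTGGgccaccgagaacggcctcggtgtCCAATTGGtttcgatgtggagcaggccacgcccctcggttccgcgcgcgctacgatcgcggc
Elovl5: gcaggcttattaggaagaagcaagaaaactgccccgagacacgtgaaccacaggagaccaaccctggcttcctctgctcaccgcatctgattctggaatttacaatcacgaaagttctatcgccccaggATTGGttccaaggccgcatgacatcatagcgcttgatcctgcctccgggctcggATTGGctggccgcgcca

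The RefSeq promoter table held 23 of the 29 members, and Fdps, Fdft1, Sqle, Stard4, Scd1 and Scd2 were not matched. TCACNCCAC, searched on both strands of the 250 bases before the start, was found in 1 of the 23, Hmgcs1, and in 1.05% of all 32851 windows of that length. Variants of these letters were not searched, so the count does not show that the other promoters lack a sterol regulatory element. A CCAAT box, the site of the factor NF-Y, was found in 20 of the 23 and in 72.4% of their windows, against 33.8% of all windows. A pair of boxes in Fasn overlap each other. Elovl5 holds the box too. A match is a run of letters and not a measured binding site.

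Between treatments, the members differed little in Ncr1-positive barcodes. Of the 24 members at 5 CPM or more in either library, 0 were at least 25% above their IL-15SA level in the IL-15SA+IL-21Fc library, against 8.62% of the 9186 genes tested, and 0 had an IL-15SA level at least 25% above the other, against 4.29%. At 1.5-fold these shares of all genes were 2.25% and 0.501%. The sterol enzymes together were at 359 CPM (352 to 366) in the IL-15SA+IL-21Fc library and 373 CPM (366 to 380) in the IL-15SA library, with a ratio of 0.962 (0.936 to 0.989). The fatty acid enzymes were at 223 CPM (218 to 229) and 221 CPM (216 to 227), with a ratio of 1.01 (0.973 to 1.04). The regulators were at 134 and 129 CPM, with a ratio of 1.04 (0.996 to 1.09). When every retained barcode with an Ncr1 UMI was used, including those in the tumour and stroma cluster, the sterol log2 ratio changed sign, to 0.040 against -0.056.

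**Figure D2:**
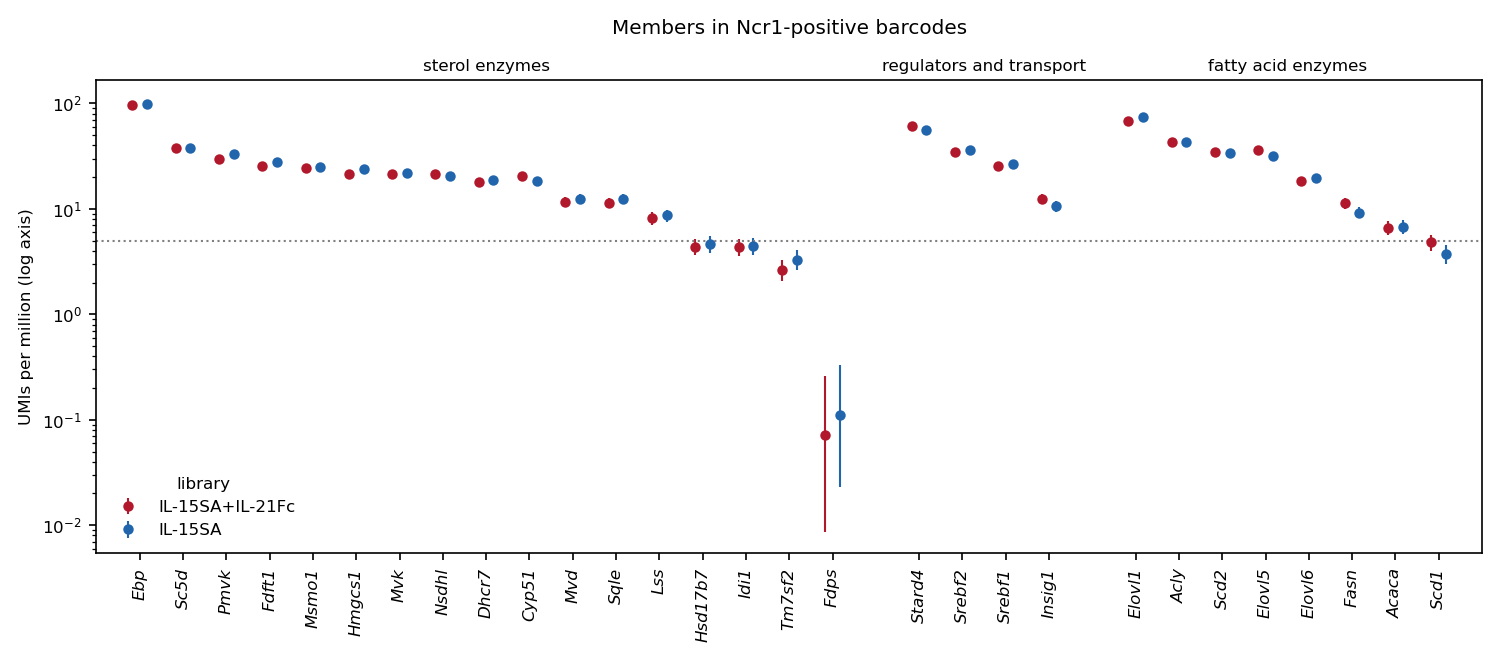
Level of each member in Ncr1-positive barcodes as CPM (log axis) with the 95% counting interval, in the IL-15SA+IL-21Fc library (red) and the IL-15SA library (blue). The dotted line marks 5 CPM. The points of both libraries lie close together for most members, and Fdps rests on 2 and 3 UMIs.

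With 1 CPM added, 11 of 13 sterol enzymes had a log2 ratio below 0, with a median of -0.074, against 50.3% of all genes and a median of -0.0018. Pmvk had the lowest, at 29.4 CPM (27.4 to 31.5) in the IL-15SA+IL-21Fc library and 33.4 CPM (31.3 to 35.7) in the IL-15SA library, and was the only sterol enzyme with a ratio, 0.880 (0.800 to 0.969), whose interval excluded 1. Hmgcs1 was at 21.3 and 23.8 CPM (ratio 0.895, 0.799 to 1.002), and Fdft1 at 25.4 and 27.8 CPM (ratio 0.913, 0.823 to 1.01). These are the steps into HMG-CoA and into squalene. At the other end, Cyp51 was at 20.4 and 18.2 CPM (ratio 1.12, 0.989 to 1.26), and Nsdhl at 21.5 and 20.3 CPM.

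The remaining sterol enzymes all had intervals that include 1. In the IL-15SA+IL-21Fc and IL-15SA libraries Ebp was at 96.4 and 99.6 CPM, Sc5d at 37.9 and 38.0 CPM and Dhcr7 at 17.9 and 18.9 CPM. Mvk was at 21.2 and 21.7 CPM, Mvd at 11.7 and 12.5 CPM, Sqle at 11.4 and 12.5 CPM, Lss at 8.11 and 8.66 CPM and Msmo1 at 24.6 and 25.0 CPM. Below the filter of 5 CPM were Idi1, at 4.34 and 4.44 CPM, Hsd17b7, at 4.38 and 4.63 CPM, and Tm7sf2, at 2.62 and 3.29 CPM.

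Intervals that exclude 1 were found for 4 of 24 members on the higher side and 2 of 24 on the lower side, against 22.7% and 22.9% of all genes. The members' shares were no larger than these. Insig1 was at 12.5 CPM in the IL-15SA+IL-21Fc library and 10.57 CPM in the IL-15SA library (ratio 1.18, 1.01 to 1.39), and Stard4 at 61.1 and 55.8 CPM (ratio 1.09, 1.021 to 1.17). The genes of the SREBPs themselves had intervals that include 1, Srebf2 at 35.0 and 35.9 CPM and Srebf1 at 25.7 and 26.5 CPM.

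Among the fatty acid enzymes, 4 of 7 had a log2 ratio below 0, with a median of -0.0068. Fasn had the highest of the 24 members, 0.26, at 11.3 CPM (10.1 to 12.6) in the IL-15SA+IL-21Fc library and 9.22 CPM (8.11 to 10.4) in the IL-15SA library. Its ratio was 1.22 (1.03 to 1.45), and the intervals of the levels overlap. Elovl5 was at 36.2 and 31.7 CPM (ratio 1.14, 1.04 to 1.252), and Elovl1 was lower, at 68.4 and 73.8 CPM (ratio 0.927, 0.870 to 0.987). The others had intervals that include 1: Scd2 was at 34.8 and 33.9 CPM, Elovl6 at 18.6 and 19.6 CPM, Acly at 42.6 and 42.8 CPM and Acaca at 6.60 and 6.72 CPM. Scd1 was below the filter of 5 CPM and is not among the 24, at 4.81 and 3.70 CPM (ratio 1.30, 0.996 to 1.70). Its log2 ratio of 0.31 was above that of Fasn, with an interval of the ratio that includes 1.

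Genes beside the pathway gave a few larger differences. Beside each list's counts stand the shares of all genes, 8.62% higher and 4.29% lower by 25%, with 50.3% below 0. Of 10 other genes of the sterol branch, 7 were below 0 and 1 passed 25%: Acat2, a cytosolic thiolase, at 16.4 CPM in the IL-15SA+IL-21Fc library and 12.8 CPM in the IL-15SA library. Pdss1, which makes the side chain of ubiquinone, was lowest at 10.9 and 13.7 CPM. Of 6 genes at 5 CPM or more in either library that were listed with the SREBP machinery, Ubxn8 among them, only Scap passed 25%. Scap, which escorts SREBPs out of the endoplasmic reticulum, was at 8.61 and 11.2 CPM (ratio 0.771, 0.648 to 0.917). Mbtps2, a protease that releases SREBPs, was highest at 6.21 and 5.71 CPM.

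Of 10 genes of sterol uptake, storage and efflux at 5 CPM or more, 8 were above 0, where 50.3% of all genes were below 0. At least 25% higher were 2 of the 10, against 8.62% of all genes, and 0 were lower by 25%, against 4.29%. Abcg1, a sterol exporter, was highest at 20.3 CPM in the IL-15SA+IL-21Fc library and 13.4 CPM in the IL-15SA library (ratio 1.52, 1.33 to 1.74). The other was Mylip, named after its value was seen, at 15.3 and 10.3 CPM. Abca1 of the same list was below the filter, at 1.65 and 1.53 CPM, with a ratio of 1.08 (0.692 to 1.68). Soat1, which esterifies cholesterol for storage, was lowest at 40.8 and 49.7 CPM. Among 13 other fatty acid genes the desaturase Fads1 was highest, at 8.65 and 5.30 CPM (ratio 1.63, 1.32 to 2.02), and Acsl3, which activates fatty acids, lowest, at 4.41 and 5.23 CPM. None of 17 fatty acid oxidation genes passed 25%, from Acadm, a dehydrogenase, at 32.9 and 28.7 CPM, to Cpt1a, which carries fatty acids towards mitochondria, at 14.5 and 17.6 CPM.

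Cell cycle genes were lower in the same barcodes. All 22 S phase genes had a log2 ratio below 0, from Mcm3 at -0.33 to Slbp at -0.0055, as did 21 of 22 G2 and M phase genes, from Cdk1 at -0.27 up to the exception, Ccnb2, at 0.14. The cycling cluster 2 held 1987 of 9794 Ncr1-positive barcodes of the IL-15SA+IL-21Fc library and 1857 of 7075 of the IL-15SA library. Without it the sterol sum had a log2 ratio of -0.046 and the sterol median was -0.0017.

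**Figure D3:**
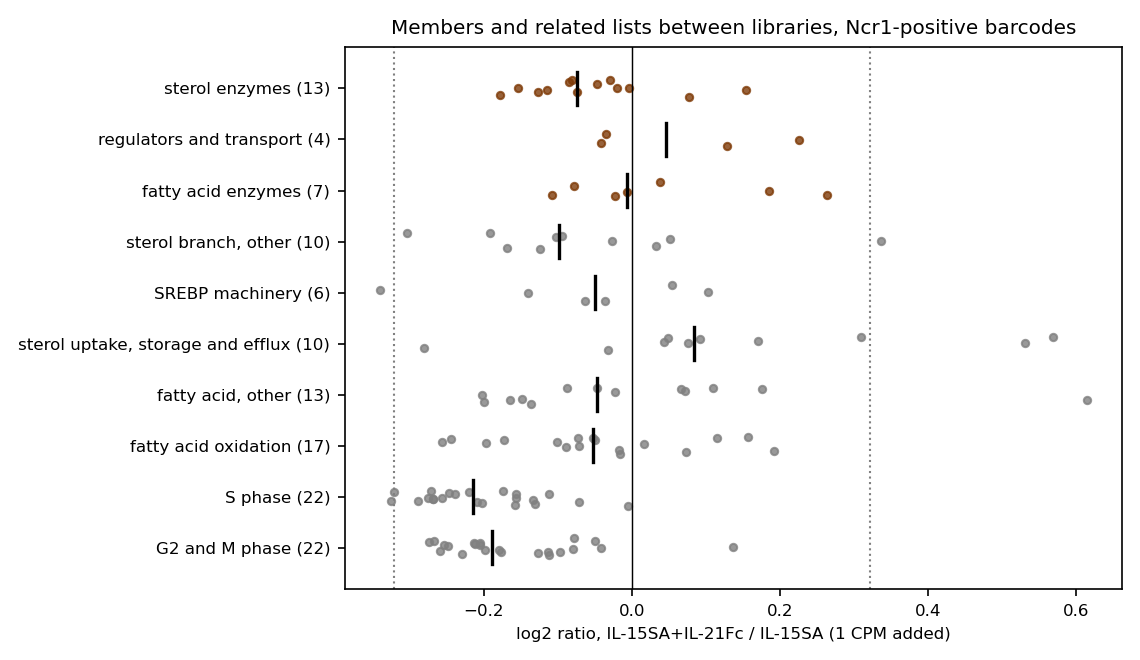
Log2 ratio of IL-15SA+IL-21Fc over IL-15SA in Ncr1-positive barcodes for the members (brown) and related lists (grey), 1 point per gene, with the number of genes in brackets, the median as a bar and a 25% difference as dotted lines. All 24 members lie between the dotted lines, and the S phase list lies wholly below 0.

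States of the Ncr1-positive barcodes were taken from clusters found without the member genes, and each cluster was set against the other Ncr1-positive barcodes of its library. In cluster 2, led by Nusap1, Esco2 and Rrm2, 0 of 24 members were at least 1.5-fold higher in both libraries and 0 lower, against 7.78% and 1.55% of 9024 genes. The sterol enzymes together were at 393 CPM in cluster 2 and 344 CPM in the other barcodes of the IL-15SA+IL-21Fc library, with a ratio of 1.14 (1.10 to 1.19). In the IL-15SA library the levels were 406 CPM in cluster 2 and 355 CPM in the others, with a ratio of 1.14 (1.10 to 1.19). The fatty acid enzymes had ratios of 1.09 (1.03 to 1.15) and 1.06 (1.01 to 1.12). Cells of cluster 2 were deeper, with a median of 3928 and 4681 UMIs, against 2436 and 3212 over all Ncr1-positive barcodes.

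In cluster 2, 5 of 24 members were higher with intervals that exclude 1 in both libraries, against 21.8% of all genes, and 0 were lower, against 16.8%. The share of 5 in 24 is near the background. Fdft1, which commits isoprenes to sterols, was at 32.8 CPM in cluster 2 and 22.2 CPM in the other barcodes of the IL-15SA+IL-21Fc library, and at 35.4 and 23.7 CPM in those of the IL-15SA library, with ratios of 1.48 (1.27 to 1.72) and 1.49 (1.29 to 1.73). Of the exon bases of Fdft1, 18.3% are shared with Ctsb on the opposite strand, and reads there may belong to either gene. Ebp was 1.255-fold and 1.34-fold higher, Mvk 1.33-fold and 1.47-fold, Elovl5 1.39-fold and 1.21-fold and Stard4 1.16-fold and 1.21-fold. Sqle had ratios of 0.953 (0.740 to 1.22) and 1.48 (1.19 to 1.85).

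Cluster 1, led by Dixdc1, Cd3g and the Ly49 receptor gene Klra7, lay on the other side. At least 1.5-fold higher or lower were 0 of 24 members, against 0.401% and 5.76% of all genes. Mvk, Fdft1, Ebp, Stard4, Acly and Elovl5 were lower with intervals that exclude 1 in both libraries, 6 of 24 against 18.3% of all genes. The share of 6 in 24 is not far from the background. The sterol enzymes together had ratios of 0.933 (0.893 to 0.974) and 0.948 (0.909 to 0.988), and the fatty acid enzymes 0.899 (0.851 to 0.950) and 0.955 (0.905 to 1.01). Elovl5 was at 26.5 CPM in cluster 1 and 40.6 CPM in the other barcodes of the IL-15SA+IL-21Fc library, and at 26.4 and 34.7 CPM in those of the IL-15SA library, with ratios of 0.654 (0.562 to 0.759) and 0.760 (0.653 to 0.883). Scd2 was higher, 1 of 24 members against 8.27% of all genes, at 40.4 CPM in cluster 1 and 32.4 CPM in the others of the IL-15SA+IL-21Fc library and at 37.7 and 31.8 CPM in those of the IL-15SA library. Since the barcodes of each cluster belong to the others' comparison, the higher values in cluster 2 and the lower ones in cluster 1 are not separate results.

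In cluster 3, led by Cd74, Cxcr6 and Il7r, 0 of 24 members passed 1.5-fold, against 3.25% of all genes higher and 3.87% lower. Stard4, with ratios of 1.27 and 1.24, and Elovl5, with ratios of 1.18 and 1.27, were higher with intervals that exclude 1 in both libraries, 2 of 24 against 12.1% of all genes, and 0 were lower, against 8.89%. In cluster 6, led by the interferon-induced genes Ifit2, Slfn5 and Mx1, Scd2 was lower in this way, 1 of 25 against 7.88%, and 0 were higher, against 4.49%. Scd2 was at 23.8 CPM in cluster 6 and 35.5 CPM in the others of the IL-15SA+IL-21Fc library, and at 20.8 and 34.4 CPM in those of the IL-15SA library. Scd1 passed 1.5-fold in cluster 6, 1 of 25 members against 2.63% of all genes, on 13 and 8 UMIs and with intervals of 0.868 to 2.98 and 0.942 to 4.62, and 0 were lower, against 5.16%.

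Clusters 4 and 7 had no member past either threshold. With barcodes thinned to 1000 UMIs, Sqle in cluster 4 and Mvk, Mvd, Sc5d and Scd2 in cluster 7 passed 1.5-fold. In clusters found with the members left in, Fasn in cluster 7 was lower by that fold. In cluster 4, led by Cma1 and Ccl5, 0 of 24 passed 1.5-fold, against 0.89% of all genes higher and 4.62% lower, and 0 had intervals that exclude 1 in both libraries, against 4.35% and 12.5%. In cluster 7, led by Gzmg, Gzmf and Gzmd, the counts were also 0 of 24, against 2.39% and 11.6% at 1.5-fold and 4.35% and 8.36% by intervals. Cluster 7 held 100 and 274 Ncr1-positive barcodes, so small differences were not detectable there.

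**Figure D4:**
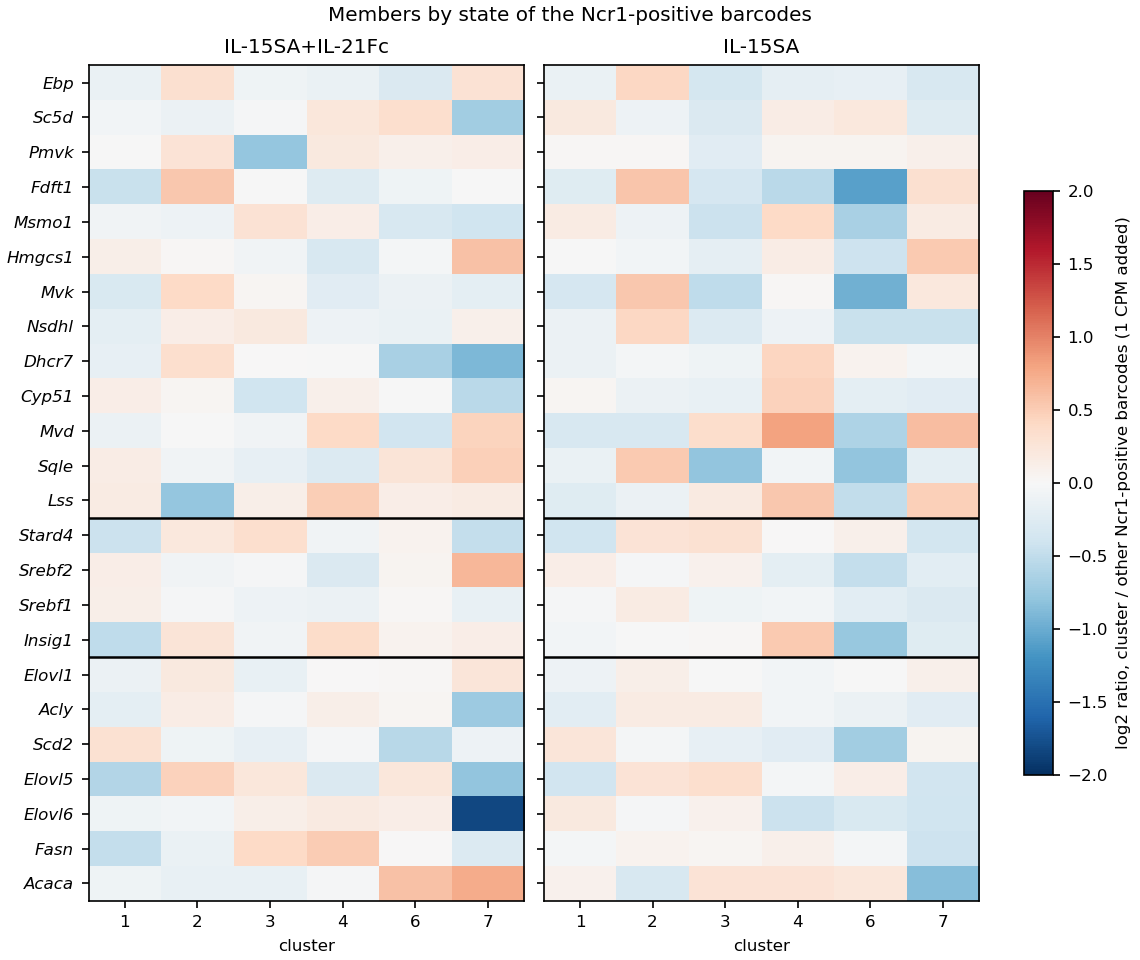
Log2 ratio of each cluster over the other Ncr1-positive barcodes of its library, with 1 CPM added, for the 24 members at 5 CPM or more, in the IL-15SA+IL-21Fc library (left) and the IL-15SA library (right). Black lines part sterol enzymes, regulators and fatty acid enzymes. Fdft1, Mvk and Ebp are higher in cluster 2 and lower in cluster 1 in both panels.

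Within tumour-like barcodes the sterol enzymes were at 1116 CPM in the IL-15SA+IL-21Fc library and 1247 CPM in the IL-15SA library, with a ratio of 0.895 (0.838 to 0.957). Of 28 members, 4 were at least 1.5-fold lower in the IL-15SA+IL-21Fc library, against 11.2% of 10223 genes, and 0 were higher by that fold, against 7.5%. The share of 4 in 28 is near the background. Hmgcs1 rested on the most UMIs of the 4, at 96.7 CPM (85.6 to 109) in the IL-15SA+IL-21Fc library and 151 CPM (127 to 177) in the IL-15SA library, with a ratio of 0.642 (0.524 to 0.789). It was at 103 and 157 CPM in the sub-cluster led by Saa3, Dcn and Cxcl5, and at 86.7 and 141 CPM in the sub-cluster led by cell cycle genes, lower in the IL-15SA+IL-21Fc library in each.

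Of the others, Hsd17b7 was lower, at 10.9 and 23.4 CPM (ratio 0.467, 0.264 to 0.839), and Dhcr7, at 12.7 and 26.5 CPM (ratio 0.480, 0.282 to 0.828). In the sub-cluster led by Saa3, Dcn and Cxcl5 their ratios were 0.353 (0.172 to 0.728) and 0.638 (0.305 to 1.41). In the sub-cluster led by cell cycle genes they were 0.798 (0.283 to 2.56) and 0.342 (0.148 to 0.784), so each gene had an interval that includes 1 in 1 sub-cluster. The last, Idi1, at 6.35 and 10.2 CPM, had an interval of 0.273 to 1.51. Intervals that exclude 1 were thus found for 3 of 28 members on the lower side, against 7.25% of all genes, a share also near the background. On the higher side there was 1, against 5.2%: Scd2, at 179 CPM in the IL-15SA+IL-21Fc library and 149 CPM in the IL-15SA library (ratio 1.21, 1.002 to 1.46). The fatty acid enzymes together were at 626 and 619 CPM, with a ratio of 1.01 (0.922 to 1.11).

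**Figure D5:**
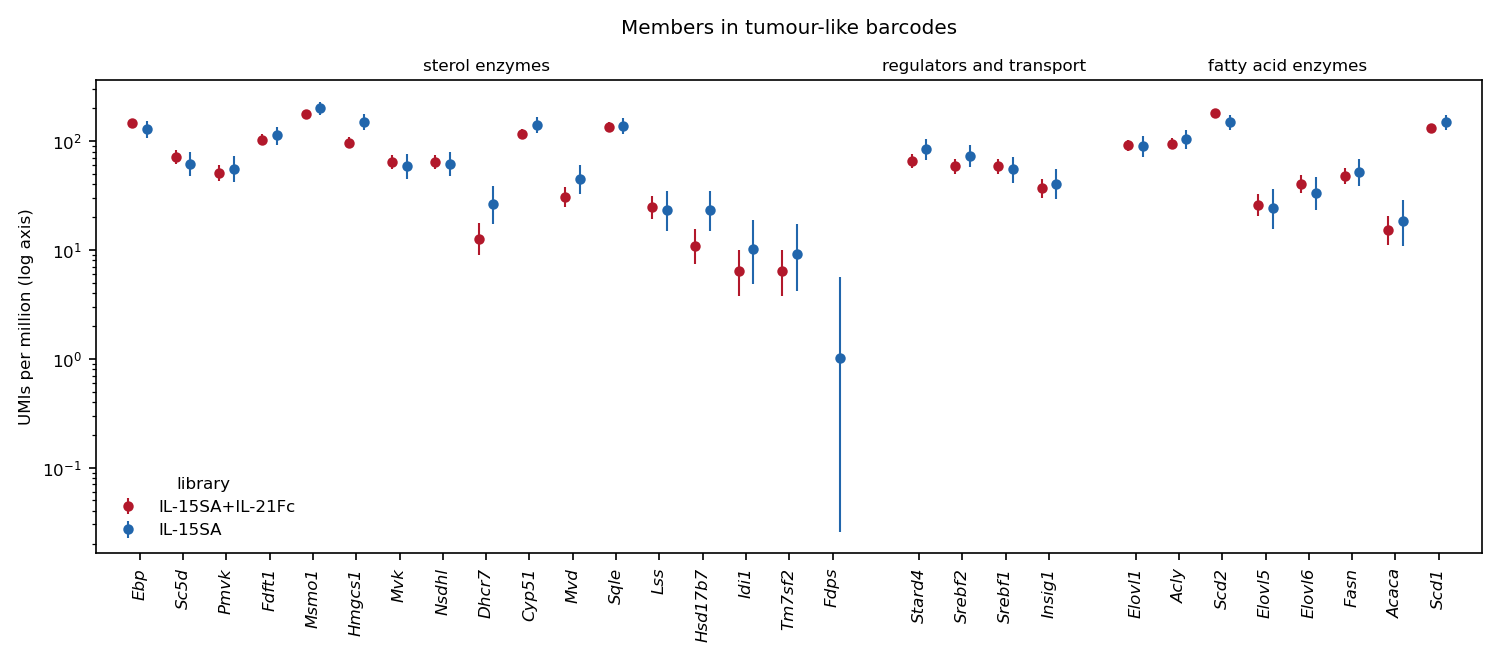
Level of each member in tumour-like barcodes as CPM (log axis) with the 95% counting interval, in the IL-15SA+IL-21Fc library (red, 552 barcodes) and the IL-15SA library (blue, 177 barcodes). Hmgcs1, Hsd17b7 and Dhcr7 are lower in the IL-15SA+IL-21Fc library, and Fdps had 0 UMIs there.

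Counted by cell, with each barcode thinned to 1000 UMIs and 0 barcodes too shallow, a UMI of any sterol enzyme was found in 59.6% (55.4 to 63.7) of tumour-like and 28.0% (27.2 to 28.9) of Ncr1-positive barcodes of the IL-15SA+IL-21Fc library (exact binomial intervals). The IL-15SA library had 62.7% (55.1 to 69.9) of tumour-like and 28.98% (27.9 to 30.05) of Ncr1-positive barcodes. For fatty acid enzymes the shares were 44.9% (40.7 to 49.2) of tumour-like and 19.2% (18.4 to 19.9) of Ncr1-positive barcodes in the IL-15SA+IL-21Fc library, and 46.3% (38.8 to 54.0) and 19.0% (18.05 to 19.9) in the IL-15SA library. Between the libraries the intervals overlap for each kind of barcode, so no difference in share was detectable at this depth. Without thinning the sterol shares were 91.1% of tumour-like and 54.0% of Ncr1-positive barcodes in the IL-15SA+IL-21Fc library, and 87.6% and 62.8% in the IL-15SA library, at median depths of 4185 and 2436 UMIs and of 4137 and 3212 UMIs.

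All 29 members are protein-coding genes, and their UMIs are given per gene and not per exon. In mm10, with positions from GENCODE M21, Hmgcs1 lies on chromosome 13 from 119690379 to 119708260, Sqle on chromosome 15 from 59315077 to 59331192 and Fdft1 on chromosome 14 from 63145150 to 63179578. Scd2 lies on chromosome 19 from 44293674 to 44306864, Scd1 on chromosome 19 from 44394455 to 44407879 and Fasn on chromosome 11 from 120805846 to 120824547. On the opposite strand Fdft1 shares 18.3% of its exon bases with Ctsb and Hmgcs1 12.1% with Gm48342, and Tm7sf2 shares 12.1% with Vps51 on its own strand. The strand setting of the counting is not stated, so reads of these stretches may belong to either gene. The values of Fdft1, Hmgcs1 and Tm7sf2 given above carry this limit.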

How the data were processed

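The members, related gene lists and alternatives were chosen with earlier results of these data known. GEXSCOPE microwell libraries were made from pooled sorted cells, per the labels' protocols. The deposited values are raw UMI counts per gene and called barcode. Per the submitters' processing notes, the tools were cutadapt, featureCounts, Seurat version 4 and Scanpy with mm10, and no step is assigned to any of them. How barcodes were called is not stated.

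The filter required 200 genes and allowed 20% mitochondrial UMIs. Scrublet's automatic threshold (scanpy 1.11.5) marked 1 and 2 cells of the IL-15SA+IL-21Fc and IL-15SA libraries, too few to have worked, so the top 5% by score were removed, 622 and 353 cells, leaving 11808 and 8033. Clustering left out the members and used a scale of 10000 UMIs, 2000 variable genes, 30 components, 15 neighbours and Leiden resolution 0.5. Cluster 5 was set apart by 3 or more tumour or stroma markers at 5 times their median over clusters and a median NK marker ratio under 0.67. No sub-cluster met the planned Ncr1 limit of 0.1 times the NK compartment, so 0.2 was chosen after the data were seen, which kept sub-clusters at 0.115 and 0.117.

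UMIs were summed over Ncr1-positive barcodes (27870231 and 26778590 UMIs) and tumour-like barcodes (2834311 and 982713 UMIs) and divided by the total (CPM). Ratios, and log2 ratios of summed enzymes, have nothing added, while log2 ratios of single genes and calls by fold add 1 CPM. Genes entered at 5 CPM or more in 1 library or population (for comparisons run in both libraries, in each). Intervals at 95% are exact Poisson for levels, exact conditional binomial for ratios and Clopper-Pearson for shares. The code was tested on simulated data. IDs matched GENCODE M21 for 53620 of 53715 genes. All members are named, and related lists by their highest and lowest gene.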

Additional observations from a re-analysis of the deposited data

Results flagged for a closer look

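The summed sterol enzymes lay on opposite sides of 1 between treatments in different groups of cells. In cluster 3 they were at 342 CPM in the IL-15SA+IL-21Fc library and 312 CPM in the IL-15SA library, with a ratio of 1.10 (1.01 to 1.19). In cluster 4 they were at 352 and 397 CPM, with a ratio of 0.887 (0.815 to 0.965), and in cluster 1 at 342 and 360 CPM, with a ratio of 0.949 (0.903 to 0.997). The ratio in tumour-like barcodes was 0.895 (0.838 to 0.957). Idi1 had a ratio of 1.59 (1.06 to 2.41) in cluster 2, on 61 and 43 UMIs, and of 0.1001 (0.00218 to 0.825) in cluster 6, on 1 and 6 UMIs. These differences between groups of cells were not tested, since each treatment had 1 library, and they were picked from all members and sums over 7 groups of cells.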

How the results depend on the processing

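No paired analysis was possible because a treatment is 1 library, without a replicate number. For the same reason no replicate could be left out. The settings without marker UMIs, without cluster 2 and with single tumour-like sub-clusters were added after seeing the data. For each shift, the cause was not tested.

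Between treatments, every retained barcode with an Ncr1 UMI gave log2 ratios of 0.040 for the sterol sum, 0.029 for the sterol median, 0.094 for the fatty acid sum and 0.11 for the fatty acid median. There 1 member (Scd1) passed both 25% and 1.5-fold, against 0. The setting without doublet removal changed more than that step. It took barcodes of any cluster with an Ncr1 UMI and at most 1 UMI of Col1a1, Col1a2, Col3a1 and Dcn together. Its sterol and fatty acid medians were -0.014 and 0.083, and 1 member (Scd1) passed 25%, as in the whole NK compartment. As a mean over cells the fatty acid median was 0.047. The sterol median was -0.029 at a filter of 20 CPM and -0.0017 without cluster 2. Without cluster 2, and without barcodes holding a marker UMI, 1 member (Fasn) passed 25%. Under the other settings the sterol sum stayed below 0, between -0.073 and -0.021. Of 312 values of single members between treatments, 5 left the counting interval of the value in the report. Of 282 between tumour-like and Ncr1-positive barcodes, 68 left it. A change of direction was looked for only where the value in the report was at least 2-fold, and 0 were found. Members closer to a ratio of 1, such as Dhcr7, Elovl5 and Stard4, were not checked for it.

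Cluster 2 over the other barcodes gave log2 ratios of 0.30 (sterol) and 0.043 (fatty acid) when the IL-15SA+IL-21Fc library was thinned to 1000 UMIs, against 0.19 and 0.13. Cells with a cell cycle score above 0 in the IL-15SA library gave 0.26 and 0.20, against 0.19 and 0.087. With thinning, 6 pairs of member and cluster passed 1.5-fold, against 1 (Scd1 in cluster 6), which was not among them. Mvk and Mvd were higher and Sc5d and Scd2 lower in cluster 7, Sqle was lower in cluster 4 and Hsd17b7 lower in cluster 1. The share of all genes was not computed for this setting, and cluster 7 then held 100 barcodes of 1000 UMIs in the IL-15SA+IL-21Fc library. In clusters found with the members left in, 1 pair passed 1.5-fold, Fasn in cluster 7, lower at log2 ratios of -0.85 and -0.60. Scd1 in cluster 6 did not pass there, and the share of all genes was again not computed.

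Tumour-like over Ncr1-positive barcodes, the sterol log2 ratios were 1.64 and 1.74, with 1.51 and 1.45 for all of cluster 5, 1.56 and 1.65 when thinned, and 1.88 in IL-15SA barcodes with 0 Ncr1 UMIs. The fatty acid log2 ratios were 1.49 and 1.48, with 1.36 and 1.27 for all of cluster 5. In the IL-15SA library they were 1.64 with 0 Ncr1 UMIs and 1.63 when thinned. The Saa3 and Dcn sub-cluster of the IL-15SA+IL-21Fc library gave 1.6 and its cycling sub-cluster 1.29.

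Shares of barcodes with a UMI depended on depth. Without thinning they were 91.1% and 87.6% of tumour-like and 54.0% and 62.8% of Ncr1-positive barcodes for sterol enzymes, and 84.4% and 84.7% of tumour-like and 40.8% and 48.9% of Ncr1-positive barcodes for fatty acid enzymes.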
